A study of Homo sapiens with 6 samples.

Results

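The genes described here are 10 genes of the interleukin-6 (IL-6) cytokine family and its signalling, chosen by symbol: the ligand genes CLCF1, LIF, IL6, IL11 and CSF3, the receptor genes IL6ST, LIFR and OSMR, the feedback inhibitor gene SOCS3 and the transcription factor gene STAT3. All 10 had a row among the 30051 genes of the count table, and all 10 passed the filter on low counts, CLCF1 through its DMSO libraries. They were measured by poly(A) RNA-seq in MDA-MB-231 cells, an established human breast cancer line of the triple-negative, mesenchymal kind. Cells had received panobinostat at 50 nM, a drug that inhibits most histone deacetylase enzymes, or its solvent DMSO, in both cases for 24 h. There were 3 libraries per treatment, panobinostat replicates 1, 2 and 4 and DMSO replicates 1, 2 and 3, each an independent repeat per the series' design text. The line is a single established culture model, and no other cell type or stroma was part of the design.

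IL-6 family ligands are secreted cytokines that signal through IL6ST, the gene of the shared receptor chain gp130, usually together with a ligand-specific chain. LIF pairs LIFR with gp130, IL-6 and IL-11 first bind their own alpha receptors (IL6R, IL11RA), CLCF1 acts through CNTFR, LIFR and gp130, and oncostatin M uses OSMR or LIFR with gp130. CSF3, granulocyte colony-stimulating factor, is a related helical cytokine with a receptor of its own, CSF3R. The receptors activate JAK kinases, which phosphorylate STAT3, and STAT3 induces SOCS3, which in turn shuts the receptor complex down.

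Under panobinostat most ligand transcripts fell while LIFR, STAT3, SOCS3 and IL6 itself rose. Of the 10 genes, 4 were higher (IL6, LIFR, SOCS3 and STAT3), 4 were lower (CLCF1, LIF, CSF3 and IL11) and 2 were not called (IL6ST and OSMR), by edgeR's quasi-likelihood test with Benjamini-Hochberg adjustment over all 13341 tested genes at an adjusted p under 0.05. Across all tested genes 30.2% were called higher, 28.6% lower and 58.9% in either direction, so a call by itself was common. Changes of at least 2-fold were rarer. Among all tested genes 4.66% were called and at least 2-fold lower, and 3 of the 10 genes were (CLCF1, LIF and CSF3). CLCF1 passed the filter through its DMSO libraries, where it is high, and without it LIF and CSF3 remain. For at least 2-fold higher the share was 10.9%, and 1 of the 10 was (LIFR). The median log2 fold change was −0.03 over the 10 genes, −0.01 over the 9 genes other than CLCF1 and 0.00 over all tested genes. Values did not overlap between treatments in 9 of the 10 genes, all but OSMR and with CLCF1 among them, against 69.0% of all tested genes.

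Levels are counts per 1000000 counts of the library (CPM), on a TMM-adjusted total, log2 fold changes are panobinostat over DMSO and stand as estimate ± SE, and n is 3 per treatment. In these bulk samples less RNA per cell and fewer cells that express a gene cannot be told apart. Library totals ran between 5389638 and 15106148 counts in panobinostat and between 6514568 and 11996519 counts in DMSO. Panobinostat replicate 4 stood apart: its Pearson correlation of log2 CPM across genes was 0.974 and 0.972 with panobinostat replicates 1 and 2, which correlated at 0.993 with each other, and 0.962 to 0.964 with the DMSO libraries. The changes of the 10 genes are therefore shown with and without it. For the other pathway genes this was done only for those named here, where leaving it out changed a call or moved a fold over 1.5 times. Over the 7853 called genes, the change from the DMSO mean in replicate 4 had a median of 52.7% of the mean change in replicates 1 and 2. This was on the log2 scale with 0.5 CPM added to each value. Without replicate 4, 37.6% of 13746 tested genes were called higher and 36.9% lower, 74.6% in all, and the same 4 of the 10 genes were higher and the same 4 lower. With the replicate number as a block 74.8% of all tested genes were called, 37.7% higher and 37.1% lower, and again 4 of the 10 genes were higher and 4 lower. In that fit panobinostat replicate 4 and DMSO replicate 3 stand alone in their blocks, so the treatment estimate rests on replicates 1 and 2. It is therefore no check apart from the fit without replicate 4. Of the line's marker genes VIM, CD44, EGFR, ZEB1 and AXL were abundant. EGFR, ZEB1 and AXL were called lower under panobinostat, VIM was called higher (0.16 on the log2 scale) and CD44 was not called. Among the fits that left out 1 library, the VIM call held only without panobinostat replicate 4. SPARC had 35 counts in each treatment, and the 6 markers with a row summed to 4977 to 5087 CPM in panobinostat and 5213 to 5289 CPM in DMSO. Summed leukocyte markers (7 of 10 with a row) were 4.20 to 5.90 CPM in panobinostat and 2.53 to 2.98 CPM in DMSO, and the leukocyte gene PTPRC had 2 counts in panobinostat and 0 in DMSO. The monocyte gene CD14 of that list had 74 counts in panobinostat and 14 in DMSO, a mean of 2.45 CPM in panobinostat and 0.522 CPM in DMSO. CD8A, also of that list, was not called, with 55 counts in panobinostat and 48 in DMSO. The 5 endothelial markers summed to 37.3 to 56.9 CPM in panobinostat and 16.2 to 20.4 CPM in DMSO, and the 6 fibroblast markers to 55.3 to 90.3 CPM in panobinostat and 17.1 to 19.2 CPM in DMSO. Those sums lay mostly in KDR and COL1A1, which rose, while CDH5, DCN and LUM had 8, 1 and 0 counts in panobinostat and 3, 0 and 1 in DMSO. The endothelial gene PECAM1 went the other way, with 126 counts in panobinostat and 179 in DMSO. It was not called with all libraries (−0.58 on the log2 scale) and was called lower without panobinostat replicate 4 (−0.77). The 8 luminal epithelial markers summed to 453 to 487 CPM in panobinostat and 531 to 538 CPM in DMSO. Of these KRT18 (−0.49), EPCAM (−0.77) and GATA3 (−1.19) were called lower on the log2 scale and KRT8 (0.06) was not called. ESR1, PGR and FOXA1 went the other way but were too low to be tested. They had 13, 19 and 47 counts in panobinostat and 5, 2 and 24 in DMSO. CDH1 had 0 counts in panobinostat and 1 in DMSO. GATA3 was called lower only with all libraries or without panobinostat replicate 4 among the fits that left out at most 1 library. The part of these markers in the results was not tested.

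**Figure D1:**
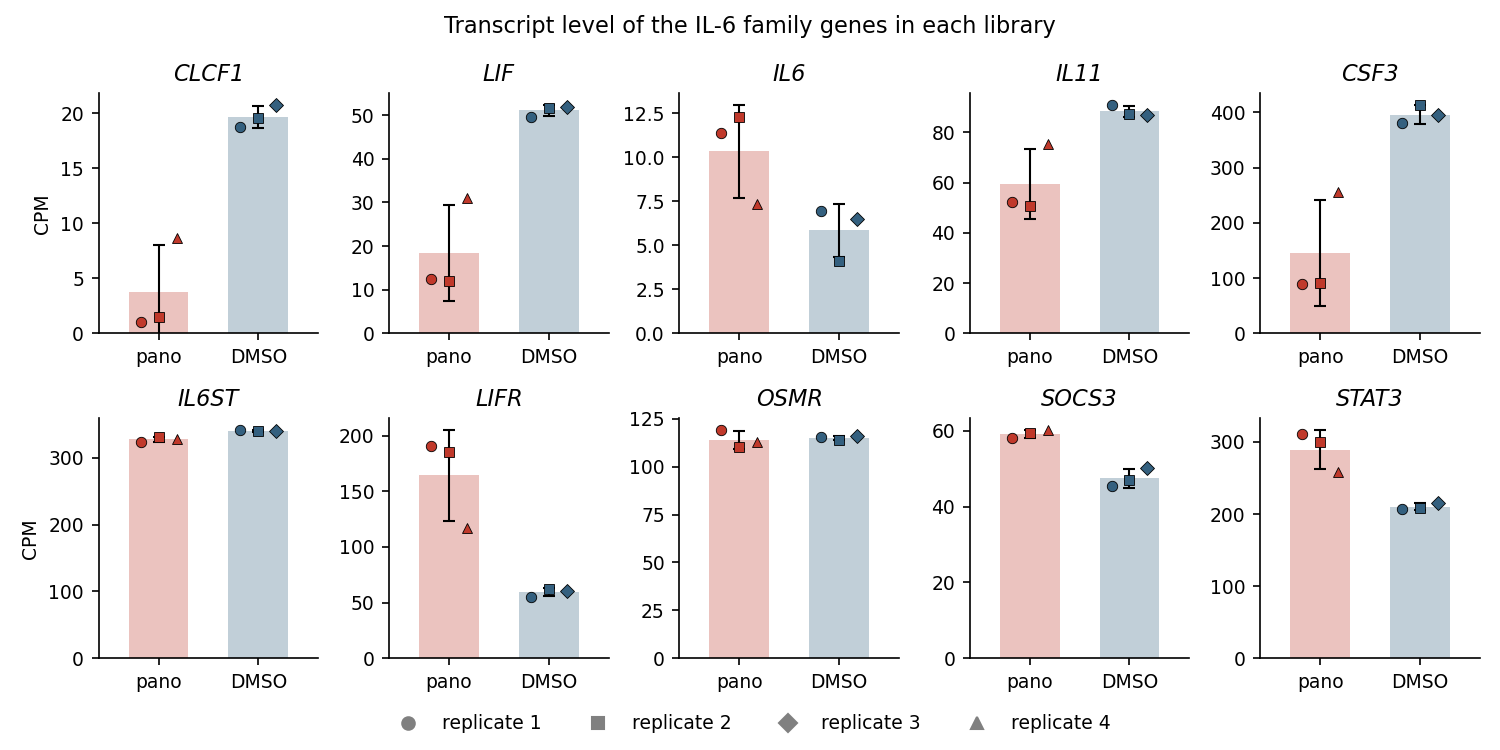
Transcript level (CPM, y axis, separate scale per gene) of the 10 genes in each library under panobinostat (pano, red) and DMSO (blue), with bars for the mean and whiskers for ± SD (n = 3), the lower CLCF1 whisker being cut at 0. The ligands CLCF1, LIF, IL11 and CSF3 lay lower in all 3 panobinostat libraries, LIFR, STAT3, SOCS3 and IL6 higher, and panobinostat replicate 4 (triangle) lay nearest to DMSO in most of the genes that changed.

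Upstream sequences are shown for IL6 and IL11, ligands that moved in opposite directions, and for LIFR, the receptor that rose. They are the 250 bases before an annotated start, 5′ to 3′ on the strand of the gene, from a table of RefSeq starts on GRCh38.p14, in which IL6, IL11, IL6ST, LIFR, OSMR, SOCS3 and STAT3 were matched, 7 of the 10 genes. Capitals mark matches, on either strand, to the STAT motif TTCNNNGAA, the AP-1 motif TGANTCA, the C/EBP motif TTGCNNAA or the NF-kB motif GGGANTTNC, where N is any base. The windows are chr7:22726950-22727199 (plus strand) for IL6, chr19:55370464-55370713 (minus strand) for IL11 and chr5:38595406-38595655 (minus strand) for the first listed of 3 LIFR starts.
IL6: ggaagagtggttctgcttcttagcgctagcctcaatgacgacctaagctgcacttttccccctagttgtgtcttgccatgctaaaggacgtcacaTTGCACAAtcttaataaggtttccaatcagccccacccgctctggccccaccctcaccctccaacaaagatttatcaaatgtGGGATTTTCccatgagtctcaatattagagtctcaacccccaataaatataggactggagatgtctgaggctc
IL11: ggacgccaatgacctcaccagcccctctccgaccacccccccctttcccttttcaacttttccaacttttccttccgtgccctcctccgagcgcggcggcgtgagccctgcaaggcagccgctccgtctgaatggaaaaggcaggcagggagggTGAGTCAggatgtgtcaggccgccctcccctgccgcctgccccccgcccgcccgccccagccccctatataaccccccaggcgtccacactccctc
LIFR: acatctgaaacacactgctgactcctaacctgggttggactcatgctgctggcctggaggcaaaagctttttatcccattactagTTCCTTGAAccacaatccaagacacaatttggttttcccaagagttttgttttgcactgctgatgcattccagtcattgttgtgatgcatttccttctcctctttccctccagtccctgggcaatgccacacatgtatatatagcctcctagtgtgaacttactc
The IL6 window held the C/EBP motif starting 155 bases and the NF-kB motif starting 73 bases before the start, and the IL11 window held the AP-1 motif at 96 bases. The printed LIFR window held the STAT motif at 165 bases, the second LIFR start held it at 182 bases together with a C/EBP match at 31 bases, and the third LIFR start held none of the 4 motifs. Among the other genes OSMR had a C/EBP match at 73 bases and NF-kB matches at 125 and 30 bases, and none of the motifs was found in the windows of IL6ST, STAT3 or the 2 SOCS3 starts. Of all 35116 windows of this length, 6.57% held the STAT motif, 6.57% the AP-1 motif, 9.05% the C/EBP motif and 3.96% the NF-kB motif. None of the 4 motifs overlapped another in the printed windows. A match describes letters only, and which LIFR start the cells used was not measured.

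Among the ligands, CLCF1 encodes cardiotrophin-like cytokine factor 1, a neurotrophic and B-cell stimulating cytokine. It lies on chromosome 11 from 67364168 to 67374177 on GRCh38.p14. It had 1.05, 1.47 and 8.70 CPM in panobinostat replicates 1, 2 and 4, against 18.8, 19.6 and 20.7 CPM in DMSO replicates 1, 2 and 3. Every panobinostat library lay below every DMSO library, and replicate 4 lay between the other panobinostat libraries and DMSO. The mean was 3.74 ± 4.30 CPM in panobinostat and 19.7 ± 0.991 CPM in DMSO (SD, n = 3 each), a fall of 5.89-fold (log2 fold change −2.56 ± 0.59, edgeR adjusted p = 0.00764). Leaving out panobinostat replicate 4 gave a log2 fold change of −4.07 ± 0.20. In counts this gene had 16, 8 and 58 reads in the 3 panobinostat libraries and 222, 138 and 134 in the 3 DMSO libraries. The filter asked for 1.46 CPM, unadjusted, in 3 libraries, which CLCF1 met in 2 panobinostat libraries and 3 DMSO libraries. Leaving CLCF1 out, 3 of the 9 other genes were lower and 4 higher.

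LIF, leukaemia inhibitory factor, is on chromosome 22 from 30240453 to 30246759. It had 12.4, 11.9 and 31.0 CPM in panobinostat replicates 1, 2 and 4, against 49.7, 51.6 and 52.0 CPM in DMSO replicates 1, 2 and 3. The treatments did not overlap, and replicate 4 was again the panobinostat library nearest to DMSO. LIF was 2.82-fold lower (log2 fold change −1.50 ± 0.32, edgeR adjusted p = 0.00593), and the estimate was −2.06 ± 0.09 when replicate 4 was left out.

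CSF3 had the highest level of the 5 ligands and lies on chromosome 17 from 40015440 to 40017813. It had 89.7, 91.2 and 255 CPM in panobinostat replicates 1, 2 and 4, against 380, 414 and 395 CPM in DMSO replicates 1, 2 and 3. All 3 panobinostat libraries were below all DMSO libraries. The fall was 2.73-fold (log2 fold change −1.45 ± 0.37, edgeR adjusted p = 0.0112), and −2.14 ± 0.05 on the log2 scale without replicate 4. IL11, a cytokine of bone metastasis and fibrosis, is on chromosome 19 from 55364382 to 55370463. It had 52.3, 50.6 and 75.4 CPM in panobinostat replicates 1, 2 and 4, against 90.9, 87.1 and 86.9 CPM in DMSO replicates 1, 2 and 3. Its groups did not overlap and its fall was the smallest of the 4, 1.49-fold (log2 fold change −0.58 ± 0.15, edgeR adjusted p = 0.0108, and −0.78 ± 0.06 without replicate 4).

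IL6, the founding member of the family, was the one ligand of the 5 that rose. It lies on chromosome 7 from 22727200 to 22731998. It had 11.4, 12.3 and 7.35 CPM in panobinostat replicates 1, 2 and 4, against 6.93, 4.11 and 6.50 CPM in DMSO replicates 1, 2 and 3. The groups did not overlap, but panobinostat replicate 4 and DMSO replicate 1 lay close together, with 49 and 82 counts. The rise was 1.75-fold (log2 fold change 0.81 ± 0.25, 95% interval 0.22 to 1.39, edgeR adjusted p = 0.0253), and 0.95 ± 0.17 without replicate 4. The call was lost when panobinostat replicate 1, panobinostat replicate 2, DMSO replicate 2 or DMSO replicate 3 was left out (adjusted p by edgeR = 0.0591 to 0.0954, with 4.83e-08 to 0.0954 across the alternatives).

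Levels of different genes were compared per length, as CPM per kilobase of exon (RPKM), with exon lengths of GENCODE release 29. Per length the order in panobinostat was CSF3 at 65.5 ± 42.9, IL11 at 22.3 ± 5.20, IL6 at 5.00 ± 1.27, LIF at 4.65 ± 2.75 and CLCF1 at 1.89 ± 2.18 RPKM (SD, n = 3). In DMSO it was CSF3 at 178 ± 7.55, IL11 at 33.1 ± 0.838, LIF at 12.9 ± 0.313, CLCF1 at 9.97 ± 0.502 and IL6 at 2.83 ± 0.732 RPKM. CSF3 and IL11 held the top places in both, with no overlap of spread between neighbours in DMSO. Under panobinostat the ranges of mean ± SD of IL6, LIF and CLCF1 overlapped. Within libraries, IL6 was above LIF in panobinostat replicates 1 and 2 and below it in replicate 4. LIF was above CLCF1 in all 3 panobinostat libraries. The 5 ligands summed to 69.2, 69.7 and 159 RPKM in panobinostat replicates 1, 2 and 4, against 231, 244 and 237 RPKM in DMSO replicates 1, 2 and 3. CSF3 was 58.4 to 72.3% of that sum in panobinostat and 74.2 to 76.4% in DMSO. IL11 was 17.8 to 28.3% of it in panobinostat and 13.4 to 14.8% in DMSO, while IL6 was 2.23 to 8.51% in panobinostat and 0.816 to 1.45% in DMSO. These shares follow from the unequal changes above and were not tested.

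**Figure D2:**
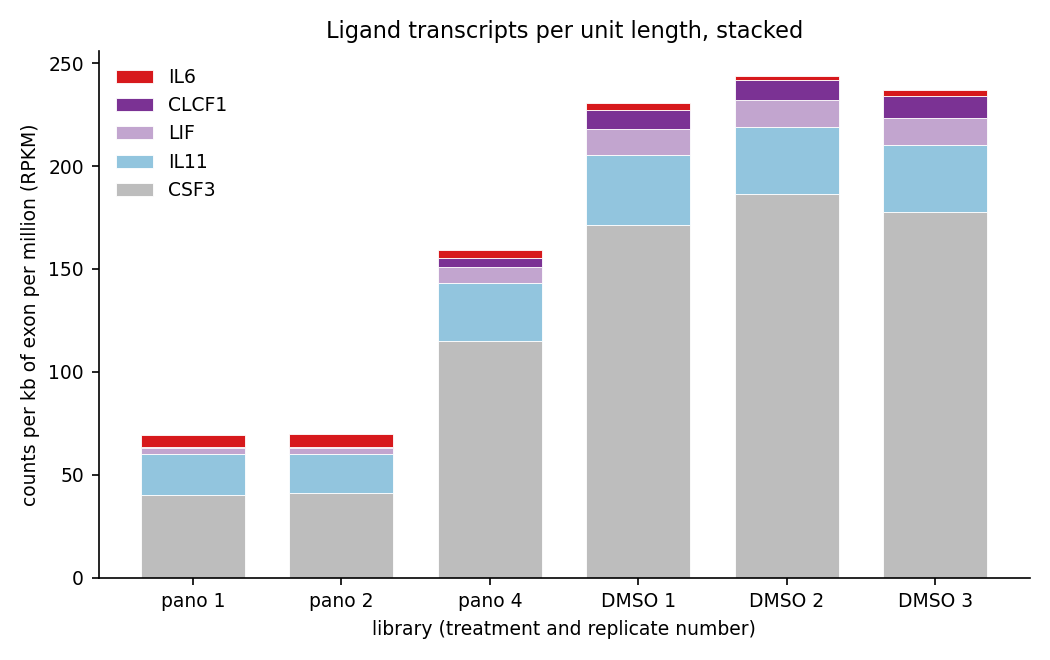
Level per exon length (RPKM, y axis) of the 5 ligand genes stacked in each library, with the panobinostat libraries (pano 1, 2 and 4) left of the DMSO libraries. The stacks reach 69.2 to 159 RPKM in panobinostat and 231 to 244 RPKM in DMSO, with CSF3 the largest part of each.

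The receptor genes moved apart. LIFR, the ligand-specific chain for LIF and CLCF1, rose, while IL6ST, the shared gp130 chain, and OSMR, the oncostatin M receptor chain, were not called. LIFR lies on chromosome 5 from 38474668 to 38608403, and OSMR follows it 238 kb further along from 38846012 to 38945579. LIFR had 191, 185 and 117 CPM in panobinostat replicates 1, 2 and 4, against 55.2, 62.3 and 60.2 CPM in DMSO replicates 1, 2 and 3. Even its lowest panobinostat library was well above the highest DMSO library. The rise was 2.79-fold (log2 fold change 1.48 ± 0.18, 95% interval 1.07 to 1.89, edgeR adjusted p = 0.000904), and 1.68 ± 0.05 on the log2 scale without replicate 4.

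OSMR had 119, 110 and 113 CPM in panobinostat replicates 1, 2 and 4, against 115, 114 and 116 CPM in DMSO replicates 1, 2 and 3. It was the one gene of the 10 whose groups overlapped. Its log2 fold change was −0.01 ± 0.06 with a 95% interval of −0.16 to 0.14 (edgeR adjusted p = 0.889), and 0.00 ± 0.05 without replicate 4. IL6ST, on chromosome 5 from 55935095 to 55994963, had 324, 331 and 328 CPM in panobinostat replicates 1, 2 and 4, against 342, 340 and 340 CPM in DMSO replicates 1, 2 and 3. The panobinostat values lay just below the DMSO values. The log2 fold change of −0.05 ± 0.05 was not called, with a 95% interval of −0.17 to 0.06 (edgeR adjusted p = 0.377), and it was −0.07 ± 0.04 without replicate 4.

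Per length, IL6ST had the highest receptor level, with 35.3 ± 0.407 RPKM in panobinostat and 36.7 ± 0.146 RPKM in DMSO. LIFR reached 13.9 ± 3.47 RPKM in panobinostat, against 4.99 ± 0.308 RPKM in DMSO. OSMR stood at 15.9 ± 0.662 RPKM in panobinostat and 16.1 ± 0.136 RPKM in DMSO. LIFR and OSMR were therefore within their spread of each other under panobinostat and apart in DMSO. LIFR was 16.2 to 23.8% of the summed level of the 3 receptor genes in panobinostat and 8.08 to 9.09% in DMSO.

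Downstream of the receptors, STAT3 and its feedback inhibitor gene rose by less than LIFR did. STAT3, on chromosome 17 from 42313324 to 42388442, had 311, 299 and 258 CPM in panobinostat replicates 1, 2 and 4, against 208, 208 and 215 CPM in DMSO replicates 1, 2 and 3. The groups were clearly apart in every library. The rise was 1.38-fold (log2 fold change 0.46 ± 0.08, edgeR adjusted p = 0.00277, and 0.53 ± 0.04 without replicate 4). SOCS3, on chromosome 17 from 78356778 to 78360925, binds the activated receptor and JAK kinases and blocks them. It had 58.0, 59.5 and 60.1 CPM in panobinostat replicates 1, 2 and 4, against 45.4, 47.0 and 50.3 CPM in DMSO replicates 1, 2 and 3. Here replicate 4 was not intermediate but the highest library. The rise was 1.25-fold (log2 fold change 0.32 ± 0.08, edgeR adjusted p = 0.00930, and 0.30 ± 0.07 without replicate 4). Without DMSO replicate 1 the SOCS3 call was lost (adjusted p by edgeR = 0.0529, with 2.76e-06 to 0.0701 across the alternatives).

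**Figure D3:**
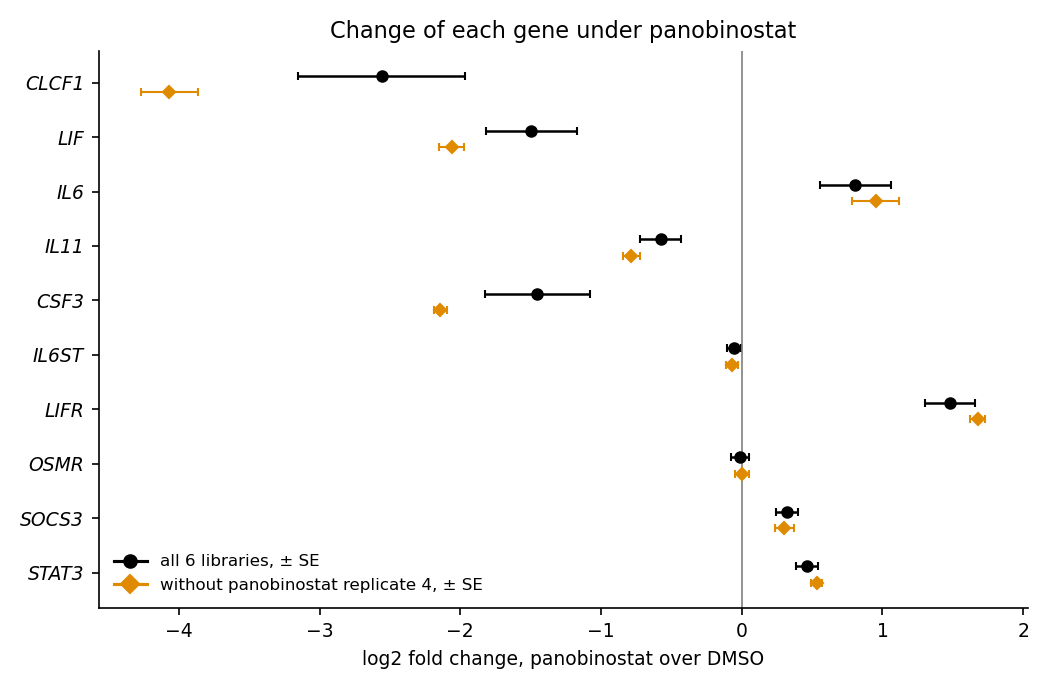
Log2 fold change of each gene, panobinostat over DMSO (x axis), fitted with all 6 libraries (black circles) and without panobinostat replicate 4 (orange diamonds), with whiskers for ± SE. CLCF1 lies at −2.56 with all libraries and −4.07 without replicate 4, LIFR at 1.48 and 1.68, and IL6ST and OSMR lie near 0 in both fits.

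Replicate 4 carried unequal parts of these changes. As a share of the mean log2 change in panobinostat replicates 1 and 2, it showed 29.1% for IL11, 29.5% for CLCF1, 29.7% for CSF3, 32.5% for IL6 and 34.7% for LIF. These values lay below the median of 52.7% over all called genes, but such shares were not particular to these ligands. The median was taken with 0.5 CPM added and the shares of single genes without it, so the measures differ somewhat at low levels. The share was 27.8% for CEBPD, 29.1% for IL27RA and 31.1% for CCND1, and for the ligands CNTF and CTF1 it was 50.7% and 65.8%. Among the 10 genes it was 55.2% for STAT3, 58.9% for LIFR and 111% for SOCS3. The authors' deposited table may draw on libraries not analysed here, and its header states no direction. Its sign was read as panobinostat over DMSO because it then matches these counts, so agreement in sign is no result. The authors' deposited table lists a log2 fold change of −2.28 for CLCF1, −1.32 for LIF, −1.31 for CSF3, −0.52 for IL11 and 0.67 for IL6. For the others the authors' deposited table gave 1.15 for LIFR, 0.38 for STAT3, 0.26 for SOCS3, −0.05 for IL6ST and −0.01 for OSMR. Its adjusted p was under 0.05 for the same 8 genes, with IL6 the nearest to that limit at 0.0477 in the authors' deposited table.

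A feature that the ligand transcripts shared was the AU-rich motif UAUUUAU in the 3′ untranslated region, a sequence known from short-lived cytokine mRNAs. In the GENCODE transcript with the longest coding sequence, CLCF1 held 4 copies, LIF 5, IL6 3, IL11 7 and CSF3 3. Of 11724 tested protein-coding genes 32.8% held at least 1 copy and 6.02% at least 3. All 5 ligand genes held at least 3, and so did OSMR with 3. SOCS3 held 2, IL6ST and LIFR 1 each, and STAT3 0. The shorter motif AUUUA occurred 6 times in the 429 bases of IL6, which rose, a density reached by 0.563% of the tested genes. In the ligands that fell it occurred 8.20 times per kilobase in CSF3, 5.56 in IL11, 4.13 in CLCF1 and 2.18 in LIF, against a median of 1.63 over the tested genes. Densities as high were reached by 2.42% of the tested genes for CSF3, 7.69% for IL11, 15.4% for CLCF1 and 40.7% for LIF. The motif was thus present in ligands that moved either way.

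Other genes of the pathway were taken from 6 lists with 64 genes outside the 10. Of these 60 had a row and 52 were tested, of which 17 were higher, 20 lower and 15 not called, or 71.2% called against 58.9% of all tested genes. Their median log2 fold change was 0.04, against 0.00 over all tested genes. The counts given for each list below stand beside 30.2% higher and 28.6% lower over all tested genes. Leaving out IL6R and STAT4, which passed the filter through their panobinostat libraries, 15 of 50 were higher and 20 lower, with a median of −0.01. Without panobinostat replicate 4, 20 were higher and 23 lower of 54 tested. Leaving out any other single library gave 14 to 16 higher and 15 to 17 lower.

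The alpha receptors of IL-6 and IL-11 rose, and the receptors of IL-27 and IL-31 fell. Of 4 other receptor genes tested in the family, 2 rose and 2 fell, with a median log2 fold change of 0.43, and these counts held without any one library. Leaving out IL6R, 1 of 3 rose and 2 fell, with a median of −0.51. IL6R, the alpha receptor for IL-6, had 5.57, 6.78 and 3.15 CPM in panobinostat replicates 1, 2 and 4, against 2.11, 1.84 and 1.08 CPM in DMSO replicates 1, 2 and 3. Its log2 fold change was 1.56 ± 0.34 (edgeR adjusted p = 0.00642), and no libraries of the treatments overlapped. IL6R passed the filter through its panobinostat libraries, with 2 DMSO libraries at the filter level. IL11RA, the alpha receptor for IL-11, had 7.21, 8.24 and 4.20 CPM in panobinostat replicates 1, 2 and 4, against 2.45, 1.56 and 3.71 CPM in DMSO replicates 1, 2 and 3 (1.37 ± 0.34, edgeR adjusted p = 0.0101). IL11RA therefore rose while its ligand IL11 fell, and IL6R and IL6 both rose. IL27RA, the receptor chain for IL-27, fell by 1.48 on the log2 scale (SE 0.36), to 17.9 ± 11.9 CPM in panobinostat, against 48.7 ± 2.40 CPM in DMSO. Without panobinostat replicate 4 the IL27RA estimate was −2.16 ± 0.10. IL31RA, a gp130-like receptor for IL-31, was at 26.2 ± 1.86 CPM in panobinostat and 37.7 ± 2.65 CPM in DMSO (−0.51 ± 0.10, edgeR adjusted p = 0.00441).

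The receptors specific to CLCF1 and CSF3 had at most 1 count per treatment. CNTFR, the ciliary neurotrophic factor receptor through which CLCF1 acts, had 1 count in the 3 panobinostat libraries together and 0 in the 3 DMSO libraries, where a count of 0 allows up to 0.118 CPM. CSF3R had 0 counts in panobinostat, which allows up to 0.110 CPM, and 1 count in DMSO. These limits cover counting error only and take 3 counts as the most that 0 allows over a group. Of the other ligand genes 3 were tested, of which 0 rose, 2 fell and 1 was not called, with a median log2 fold change of −0.91. CTF1, cardiotrophin 1, was at 3.45 ± 0.782 CPM in panobinostat and 6.80 ± 1.99 CPM in DMSO (−0.94 ± 0.26, edgeR adjusted p = 0.0163). CNTF, ciliary neurotrophic factor, was at 2.13 ± 0.532 CPM in panobinostat and 4.03 ± 0.201 CPM in DMSO (−0.91 ± 0.23, edgeR adjusted p = 0.0105). EBI3, a subunit of IL-27, was not called (−0.28 ± 0.23, edgeR adjusted p = 0.313). CTF1 was no longer called without panobinostat replicate 2 or DMSO replicate 2 (adjusted p by edgeR = 0.0519 to 0.0551, with 7.57e-06 to 0.0551 across the alternatives) and CNTF without panobinostat replicate 1 (adjusted p by edgeR = 0.0514, with 0.000447 to 0.0514 across the alternatives). OSM, the ligand of OSMR, was not analysed here.

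**Figure D4:**
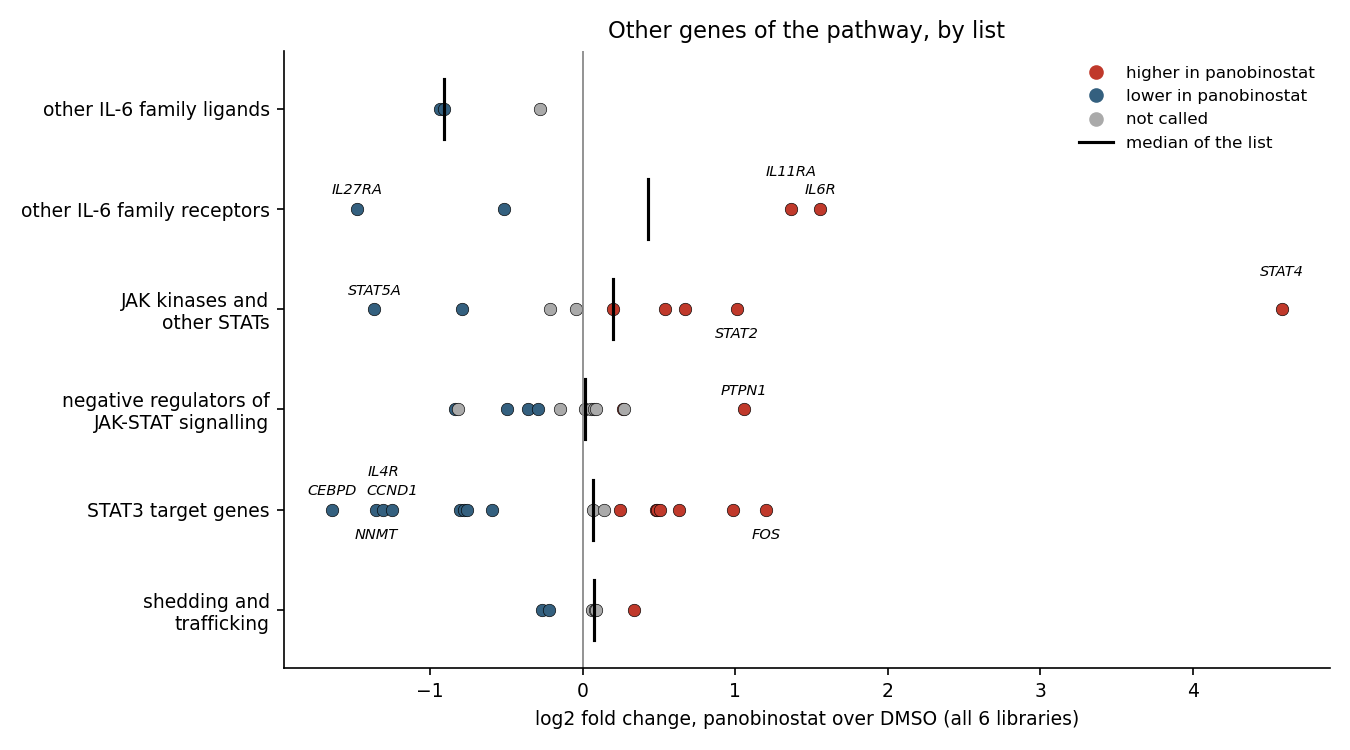
Log2 fold change, panobinostat over DMSO (x axis), of the tested genes in each of the 6 pathway lists (rows), coloured by call, with a vertical line at the median of each list and names for genes changed at least 2-fold. Each list other than the ligands holds genes on both sides of 0, with STAT4 at 4.59 and CEBPD at −1.64 the farthest out.

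Of 9 JAK kinases and STATs tested beside STAT3, 5 rose, 2 fell and 2 were not called, with a median log2 fold change of 0.20. One of the 5 was STAT4, and without it 4 of 8 rose and the median was 0.08. JAK1, the main kinase on gp130, was at 275 ± 39.8 CPM in panobinostat and 189 ± 15.5 CPM in DMSO (0.54 ± 0.11, edgeR adjusted p = 0.00536). STAT2, a factor of interferon signalling, rose too (1.01 ± 0.14), and so did TYK2 (0.20 ± 0.07, edgeR adjusted p = 0.0303). STAT4, a STAT of lymphocytes, had 116, 39 and 19 counts in panobinostat replicates 1, 2 and 4, against 3, 1 and 2 counts in DMSO replicates 1, 2 and 3. It passed the filter only through its panobinostat counts, so a difference had to follow (4.59 ± 0.56), and its rise is no support for the count of this list. STAT5A, a STAT of growth hormone and prolactin signalling, was at 8.17 ± 3.86 CPM in panobinostat and 20.5 ± 2.45 CPM in DMSO (−1.37 ± 0.29, edgeR adjusted p = 0.00529). STAT6, the STAT of IL-4 signalling, was at 59.8 ± 15.1 CPM in panobinostat and 103 ± 1.48 CPM in DMSO (−0.79 ± 0.15, edgeR adjusted p = 0.00429). JAK2 (−0.22 ± 0.15) and STAT5B (−0.04 ± 0.08) were not called, although JAK2 was called lower without panobinostat replicate 4 (adjusted p by edgeR = 0.04995, with 0.04995 to 0.533 across the alternatives). TYK2 was no longer called without any single library other than panobinostat replicate 4 (adjusted p by edgeR = 0.0536 to 0.131, with 3.10e-08 to 0.272 across the alternatives).

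Of 13 negative regulators of JAK-STAT signalling tested beside SOCS3, 2 rose, 4 fell and 7 were not called, with a median log2 fold change of 0.02. PTPN1, the phosphatase PTP1B that acts on JAK2 and TYK2, was at 354 ± 64.1 CPM in panobinostat and 171 ± 4.43 CPM in DMSO (1.06 ± 0.13, edgeR adjusted p = 0.000875). SOCS4 rose slightly (0.27 ± 0.08, edgeR adjusted p = 0.0236). SOCS6 (−0.83 ± 0.23), the phosphatase gene PTPN2 (−0.49 ± 0.10), the STAT inhibitor gene PIAS2 (−0.36 ± 0.13) and PTPN11, which encodes the SOCS3-competing phosphatase SHP2 (−0.29 ± 0.06), fell. SOCS1, the close relative of SOCS3, had 3.54, 5.68 and 10.5 CPM in panobinostat replicates 1, 2 and 4, against 10.7, 10.8 and 11.4 CPM in DMSO replicates 1, 2 and 3. It was not called with all libraries (−0.82 ± 0.35, edgeR adjusted p = 0.0716), but it was without panobinostat replicate 4 (−1.40, edgeR adjusted p = 4.31e-09, with 4.95e-12 to 0.209 across the alternatives). Leaving out a single library gave 1 to 3 higher and 2 to 6 lower genes in this list. The higher count was 1 without panobinostat replicate 1, panobinostat replicate 2, DMSO replicate 1 or DMSO replicate 2, and the lower count was 2 without panobinostat replicate 2 or DMSO replicate 1. SOCS4 was no longer called without any single library other than panobinostat replicate 4 (adjusted p by edgeR = 0.0517 to 0.107, with 1.84e-11 to 0.107 across the alternatives). SOCS6 was not called without panobinostat replicate 2, DMSO replicate 1 or DMSO replicate 2 (adjusted p by edgeR = 0.0527 to 0.0638, with 8.17e-29 to 0.0638 across the alternatives). PIAS2 was not called without panobinostat replicate 1, panobinostat replicate 2, DMSO replicate 1 or DMSO replicate 3 (adjusted p by edgeR = 0.0656 to 0.134, with 0.00219 to 0.134 across the alternatives).

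Genes known as STAT3 targets went both ways, as did all tested genes, of which 30.2% were higher and 28.6% lower. Of 17 tested besides SOCS3, OSMR and STAT3 itself, 7 rose, 8 fell and 2 were not called, with a median log2 fold change of 0.07. Leaving out a single library gave 6 to 8 higher and 6 to 8 lower genes in this list. FOS, an AP-1 subunit (1.21 ± 0.20), BCL6, a transcriptional repressor (0.99 ± 0.13), CEBPB, a C/EBP factor of the acute phase response (0.63 ± 0.12), and MYC (0.51 ± 0.08) rose. CEBPD, another C/EBP factor, was at 11.2 ± 8.54 CPM in panobinostat and 33.5 ± 5.57 CPM in DMSO (−1.64 ± 0.44, edgeR adjusted p = 0.0132, and −2.49 on the log2 scale without panobinostat replicate 4). NNMT, nicotinamide N-methyltransferase (−1.35 ± 0.25), IL4R, the IL-4 receptor (−1.31 ± 0.21), and CCND1, cyclin D1 (−1.25 ± 0.31), also fell. The survival gene MCL1 (0.07 ± 0.05) and the hypoxia factor gene HIF1A (0.14 ± 0.06) were not called. CEBPD was no longer called without DMSO replicate 2 (adjusted p by edgeR = 0.0511, with up to 0.141 across the alternatives), and HIF1A was called higher without panobinostat replicate 4 (adjusted p by edgeR = 6.51e-05, with 2.04e-10 to 0.492 across the alternatives).

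Among 6 tested genes that shed or process the receptors, 1 went up, 2 went down and the other 3 were not called. ADAM10, a protease that can cleave IL6R, was at 195 ± 17.3 CPM in panobinostat and 154 ± 4.23 CPM in DMSO (0.34 ± 0.08, edgeR adjusted p = 0.00744). VCP, an ATPase of protein degradation (−0.22 ± 0.06), and ERLIN1, an endoplasmic reticulum membrane protein (−0.27 ± 0.09), fell. ADAM17, the other main IL6R sheddase (0.08 ± 0.08), and its partners RHBDF1 (0.06 ± 0.09) and RHBDF2 (0.08 ± 0.10) were not called. ERLIN1 was no longer called without any single library other than panobinostat replicate 4 (adjusted p by edgeR = 0.0559 to 0.104, with 3.54e-13 to 0.104 across the alternatives), which leaves 1 lower gene in this list.

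Genes with patterns close to those of the falling ligands were found by the Pearson correlation of log2 CPM over the 6 libraries, among 9608 genes of at least 10 CPM. Among the closest were ATF5, NR1H2 and TAF1D for CLCF1 (each r = 1.00 after rounding), KEAP1 and CDC25A for LIF, and RANGAP1, ADPRHL2 and ASPSCR1 for IL11. Such likeness was common: 2448 genes correlated with CLCF1 above 0.95, 2578 with LIF and 2443 with IL11. The points share the 2 treatments and the intermediate place of replicate 4, so the values describe these libraries only. ATF5, a transcription factor of the stress response, was at 22.6 ± 14.4 CPM in panobinostat and 65.3 ± 2.48 CPM in DMSO. KEAP1, the adaptor that marks NRF2 for degradation, was at 60.4 ± 42.9 CPM in panobinostat and 199 ± 2.36 CPM in DMSO.

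Some of the 10 genes share exon sequence with genes on the opposite strand, and the strand setting of the counting was not given in the sources used here. OSMR shares 229 exon bases with RICTOR, which had 3427 counts in the 6 libraries, and LIFR shares 629 with LIFR-AS1, which had 102. For IL6 the overlapping genes had 18 and 37 counts and for LIF 3 and 16. IL6ST shares 797 exon bases with AC008914.1 on the opposite strand, and CLCF1 shares 61 with AP003419.1 on its own strand, where a strand setting makes no difference. The counts of these 2 overlapping genes were not analysed here. How much these overlaps add to the values was not tested.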

How the data were processed

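RNA was sequenced from 3 panobinostat and 3 DMSO libraries of MDA-MB-231 cells, with a stranded mRNA kit per the labels' protocols. The authors deposited raw counts per gene, made with featureCounts going by the table's name. The submitters' processing notes list the build GRCh38.p14 and FastQC. Aligner, annotation and strand setting were not given in the sources used here. Beside the counts stands the authors' own comparison, with log2 fold changes and p-values deposited per gene and keyed by a second identifier column. That column differs from the count identifier in 30138 lines, so identifiers were matched. 

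Counts were tested with edgeR 4.0.16 in R 4.3.3 (TMM scaling, filterByExpr, robust quasi-likelihood fit, treatment as the only term), with Benjamini-Hochberg adjustment over 13341 tested genes. The SE is the absolute estimate over the square root of F. An exact test of 3 against 3 libraries cannot go below p = 0.1 and was not used. Exon lengths, 3′ untranslated regions and overlaps came from GENCODE release 29, and coordinates and upstream sequences from RefSeq on GRCh38.p14.

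Named genes are the 10 genes, up to 4 called genes per list and direction of the largest change at 1 CPM or more, uncalled or minority genes of a list where 5 or fewer, 12 fixed pathway genes and the 3 genes most alike to CLCF1, LIF and IL11 at 10 CPM or more, with a prior count of 2. The genes and lists were chosen with earlier results of these data known. Alternatives were other scalings and filters, DESeq2 1.42.0, limma-voom of limma 3.58.1 with and without library quality weights, the replicate number as a block, and each library left out. A few lists contain genes not analysed here. Some genes that the naming rule picks are not reported here. The NF-kB motif was shortened by its last base after the matches were seen. The longer form matched IL6 and not OSMR.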

Additional observations from a re-analysis of the deposited data

How the results depend on the processing

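Under the 15 alternatives, 136 of 150 values of the 10 genes kept their direction and their side of the threshold, 9 lost the call and 5 changed sign. With no filter on low counts 1 of the 10 genes was lower (IL11), because CLCF1, LIF and CSF3 lost their calls (edgeR adjusted p = 0.104, 0.0796 and 0.136), and SOCS3 did too (0.0701). Their log2 fold changes kept their sign, and the cause was not tested. All sign changes were in OSMR, at 0.0031 with upper-quartile factors, 0.0171 with library size only, 0.0144 with the replicate block, 0.0136 without panobinostat replicate 2 and 0.0014 without panobinostat replicate 4 (range without 1 library −0.0507 to 0.0136), none of them called. Among the other named genes STAT5B changed sign, to 0.0049 without panobinostat replicate 2 (range −0.0759 to 0.0049).

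Leaving out each library in turn gave 3 to 4 higher and in each case 4 lower genes of the 10, beside 3106 to 5171 higher and 2624 to 5079 lower of all tested genes, and 14 to 20 higher and 15 to 23 lower pathway genes. LIFR, STAT3 and IL11 were called under all 15 alternatives. The treatments share replicate numbers 1 and 2 only. Deviations from the treatment means correlated at 0.05 for number 1 and 0.01 for number 2 across genes, and at −0.06 to 0.03 for unlike numbers. The panobinostat means include replicate 4, which stood apart, so these values cannot settle whether equal numbers were pairs. The numbers were not taken as pairs. With the replicate number as a block 4 of the 10 genes were higher and 4 lower, and 9980 of all tested genes were called against 7853 without it. This fit rests on replicates 1 and 2 of each treatment, and it gave the lowest adjusted p of IL6 and SOCS3 across the alternatives. The block gave 19 higher and 22 lower pathway genes. Leaving out the filter also ended the calls of IL27RA and CCND1 (adjusted p by edgeR = 0.119 to 0.121), CEBPD (0.141), SOCS4 (0.0994) and TYK2 (0.272). With the DESeq2 Wald test TYK2 (DESeq2 adjusted p = 0.0631) and PIAS2 were not called, PIAS2 also with upper-quartile factors or library size only (adjusted p = 0.0514 to 0.0587 over the 3). SOCS1 was called lower with 4 further alternatives (no filter, limma-voom, library quality weights and the block), and MCL1 and HIF1A were called higher with quality weights or the block, HIF1A also with library size only. No scaling moved the median log2 fold change of all genes by more than 0.03, and the fit with no filter moved it by −0.056. CLCF1 had the largest SE of the 10 genes, 0.59 with all libraries and 0.20 without panobinostat replicate 4. Counts were low for CLCF1, IL6R, STAT4, CNTF, CTF1 and EBI3, with 58 to 174 counts each over the panobinostat libraries. The part of low counts in their SEs was not tested.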
